A study of Homo sapiens with 32 samples.

Results

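The regions described here were the genes and gene copies of 3 families of small noncoding RNA in human cells: Y RNA, 7SK and 7SL. Members were the GENCODE 44 genes of type misc_RNA on chromosomes 1 to 22 and X that are named Y_RNA or whose name starts with RNY, RN7SK or RN7SL, each taken as a window of 500 bp on either side of the gene's 5′ end. The rule gave 1778 regions of 62062 annotated genes, with 811 in the Y RNA family, 676 in the 7SL family and 291 in the 7SK family. Of these, 6 are genes known to make the working RNA and are called true genes below (RNY1, RNY3, RNY4, RN7SL1, RN7SL2 and RN7SL3), and the other 1772 are annotated copies. Among the copies were 808 of Y RNA, 755 of them named only Y_RNA, 291 of 7SK and 673 of 7SL. The 7SK gene itself, RN7SK, has the type snRNA and the fourth Y RNA gene, RNY5, has no GENCODE entry of that name, so neither is a member. Both are shown beside the members for reference.

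The samples were 32 ChIP-seq libraries of HEK293T, a human embryonic kidney line, from a single derived clone, HEK_CloneZD29, in which ZNF143 carries a degron tag (dTAG) that lets a drug trigger its destruction. Both the untreated cells and those given dTAGV-1, which the labels put at 50 nM for 30 minutes, carry this tag. Precipitations were made through the HA tag on ZNF143 (2 untreated and 2 treated samples), or against SP1, NRF1 or YY1 (4 untreated and 4 treated samples each), and 2 untreated and 2 treated samples were mock precipitations. The deposited data used here are 4 lists of peak summits, one for each of the 4 proteins, with no value per sample or treatment, so the effect of dTAGV-1 and the spread between samples could not be measured. On chromosomes 1 to 22 and X the lists held 16165 summits (ZNF143), 126181 (SP1), 39180 (NRF1) and 106578 (YY1). A score is the −log10 of the peak caller's p or q value, and because its scale differs between lists it is given together with its rank, as the top percentage of its own list. The read depth behind the lists is unknown. Intervals in the text are 95% intervals (Wilson for a share, Newcombe for a difference between shares) and cover counting error over regions only.

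Y RNAs are short RNAs bound by the Ro60 protein, with roles in RNA quality control and DNA replication. The 7SK RNA holds the elongation kinase P-TEFb in an inactive state, and 7SL is the RNA scaffold of the signal recognition particle, which brings nascent secreted proteins to the endoplasmic reticulum. All are made by RNA polymerase III. Y RNA and 7SK genes are transcribed from promoters that lie wholly upstream of the gene, with a TATA box, a proximal element and a distal element, while 7SL genes combine upstream and internal elements. ZNF143 is a zinc finger protein known for binding such distal regions of small RNA genes. The annotated copies mostly arose when the RNA was copied into DNA and inserted elsewhere, so that a copy carries the transcribed part of a gene.

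The sequences from 250 bp before to 50 bp into the 3 Y RNA genes, and the ZNF143 element of RN7SL1, show what surrounds the ZNF143 summits. Capitals mark CCCANNATG, the core of the ZNF143 element (searched on both strands), the octamer ATGCAAAT (both strands), and TATA on the gene's own strand 40 to 15 bp before the 5′ end. The cyclic AMP response element TGACGTCA was also searched on both strands, within 300 bp upstream, and lies in none of the stretches printed, the one at RN7SL1 being outside its printed element. All are from hg38, written 5′ to 3′ on the gene's strand. RNY1 is chr7:148987199-148987498 on the minus strand, RNY3 is chr7:148983505-148983804 and RNY4 is chr7:148963065-148963364, both on the plus strand. The element of RN7SL1 is chr14:49586417-49586440 on the plus strand.
RNY1: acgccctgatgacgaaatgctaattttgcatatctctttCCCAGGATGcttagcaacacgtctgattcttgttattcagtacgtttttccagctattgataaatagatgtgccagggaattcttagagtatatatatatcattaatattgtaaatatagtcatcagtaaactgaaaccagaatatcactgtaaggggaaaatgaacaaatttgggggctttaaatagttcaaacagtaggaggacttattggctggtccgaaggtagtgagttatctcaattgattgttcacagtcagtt
RNY3: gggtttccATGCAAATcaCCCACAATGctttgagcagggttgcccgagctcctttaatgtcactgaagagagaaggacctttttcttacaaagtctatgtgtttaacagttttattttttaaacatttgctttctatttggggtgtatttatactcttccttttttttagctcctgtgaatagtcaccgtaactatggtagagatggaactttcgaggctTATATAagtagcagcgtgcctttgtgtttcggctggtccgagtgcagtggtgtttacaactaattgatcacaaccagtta
RNY4: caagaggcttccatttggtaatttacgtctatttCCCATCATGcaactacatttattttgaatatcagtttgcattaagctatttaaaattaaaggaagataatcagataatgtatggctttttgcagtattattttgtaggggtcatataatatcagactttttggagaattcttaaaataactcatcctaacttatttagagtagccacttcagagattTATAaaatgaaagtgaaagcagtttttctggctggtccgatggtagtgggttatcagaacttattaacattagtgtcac
RN7SL1 element: acagtttaCCCAGAATGcagtgct

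The transcribed parts of the closest copies aligned at 88.7 to 99.6% identity to the true genes and RN7SK. Between their upstream parts blastn found no alignment. The closest copies of RN7SL3 and RN7SK were at the low end, with 88.7% over 284 bases and 90.8% over 327 bases. An unnamed Y_RNA (ENSG00000200737.1) was 94.7% identical to RNY1 over 113 bases, RNY3P1 98% identical to RNY3 over 100 bases, RNY4P6 96.8% identical to RNY4 over 95 bases and RN7SL5P 99.6% identical to RN7SL1 over 235 bases. Over all copies, 1731 of 1772 aligned to a true gene or RN7SK with blastn, 1156 covered at least 90% of it and 1182 started within 5 bases of its first base. No copy's 200 bp upstream aligned to those of a true gene, RN7SK or RNY5. By closest gene, 390 copies matched RNY3 best (median identity 90.6%), 333 RNY1 (87.5%) and 83 RNY4 (89.4%). A further 477 matched RN7SL1 best (83.3%) and 254 RN7SK (86.6%), the latter covering a median of 72.6% of the gene.

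Summits of the 4 lists lay at the true genes and were rare at their copies. ZNF143 summits lay within 500 bp of the 5′ end at 4 of the 6 true genes (66.7%, 30.0 to 90.3), against 4 of 1772 copies (0.226%, 0.0878 to 0.579). Over all annotated genes 13.8% had one. SP1 summits lay at 6 of 6 true genes (61.0 to 100%), 58 copies (3.27%, 2.54 to 4.21) and 28.4% of all genes. NRF1 summits lay at 6 of 6 true genes, 21 copies (1.19%, 0.776 to 1.80) and 21.5% of all genes, and YY1 summits at 6 of 6 true genes, 50 copies (2.82%, 2.15 to 3.70) and 27.6% of all genes. The true genes thus stood above the share of all annotated genes in every list, and the copies below it. The difference between true genes and copies was 98.8 percentage points in the NRF1 list (59.8 to 99.2), 97.2 in the YY1 list (58.1 to 97.9), 96.7 in the SP1 list (57.7 to 97.5) and 66.4 in the ZNF143 list (29.8 to 90.1). These intervals treat the 6 true genes as independent, although the Y RNA genes all lie on chromosome 7 and the 7SL genes on chromosome 14. All 4 lists had a summit at RNY1, RNY3, RNY4 and RN7SL1, and 3 lists at RN7SL2 and RN7SL3. Among the copies 1688 had none, 46 had 1 list, 28 had 2, 9 had 3 and a single copy, RN7SL521P, had all 4. Shares of all annotated genes by number of lists, or with a summit of any list, were not computed.

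**Figure D1:**
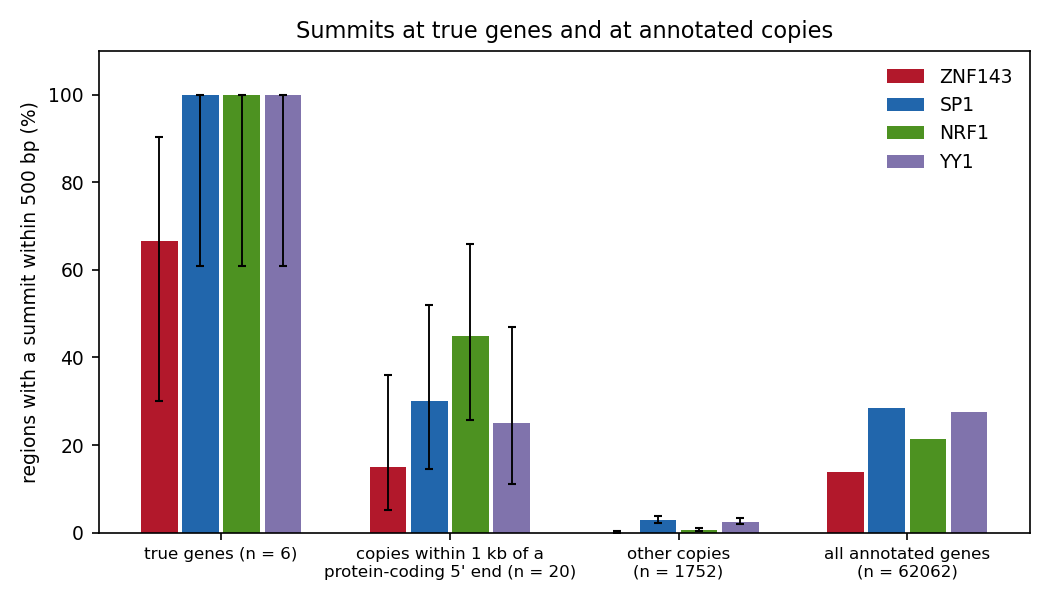
Share of regions with a summit within 500 bp of the 5′ end (y axis, %) for the 6 true genes, the 20 copies that start within 1 kb of a protein-coding gene's 5′ end, the other 1752 copies and all 62062 annotated genes, by list. Error bars are Wilson 95% intervals over regions and are not drawn for all genes. SP1, NRF1 and YY1 bars reach 100% at the true genes and stay under 3% at the copies far from protein-coding genes.

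The 3 Y RNA genes of the rule lie within 25 kb of each other on chromosome 7, more than 40 kb from the start of any protein-coding gene, and their summits had a shared layout. RNY1 (ENSG00000201098.1, 148987136 to 148987248, minus strand) had its ZNF143 summit 119 bp upstream of the 5′ end with a score of 13145, in the top 1.57% of the list. At RNY4 (ENSG00000252316.1, 148963315 to 148963410) the ZNF143 summit lay 126 bp upstream with a score of 11668 (top 2.02%). At RNY3 (ENSG00000202354.1, 148983755 to 148983856) it lay 120 bp upstream with a score of 8269 (top 3.25%). The lncRNA gene GHET1 starts 279 bp from RNY1, so summits at RNY1 cannot be assigned to either start. The 3 summits fell within 7 bp of each other when measured from the gene start.

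SP1, a zinc finger activator of GC-rich promoters, had 1 summit at each Y RNA gene, 107 bp upstream at RNY1 (score 457, top 5.15%), 145 bp at RNY3 (337, top 7.15%) and 96 bp at RNY4 (167, top 12.8%). These lay 12 to 30 bp from the ZNF143 summit. The strongest summit of YY1, a zinc finger protein that can activate or repress, lay nearer the gene, 37 bp upstream at RNY1 (score 255, top 5.74%), 66 bp at RNY3 (178, top 8.08%) and 67 bp at RNY4 (186, top 7.74%). NRF1 had low scores and no shared place. Its strongest summit lay 316 bp downstream of the RNY1 start (26.0, top 22.8%), 137 bp upstream of RNY3 (12.7, top 31.5%) and 272 bp upstream of RNY4 (17.1, top 27.4%).

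The CCCANNATG core lay farther upstream than the ZNF143 summit at all 3 Y RNA genes. It spanned positions -211 to -203 at RNY1, -232 to -224 at RNY3 and -216 to -208 at RNY4 relative to the 5′ end, which put its centre 88, 108 and 86 bp from the summit. RNY3 also had ATGCAAAT at -242 to -235, next to the core. TATA in the tested stretch was found at RNY3 and RNY4 and not at RNY1. RNY5, which the rule leaves out, lies at 148941488 to 148941571 in RefSeq on the same chromosome and had a wider spacing of summits. ZNF143 lay 146 bp upstream (score 8681, top 3.06%) and SP1 79 bp upstream, 67 bp from ZNF143. YY1 lay 10 bp upstream, and the core 76 bp from the ZNF143 summit. RNY5 lies inside a lncRNA gene, ENSG00000286171, and starts 5 bp from its 5′ end, so these summits cannot be assigned to either start.

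**Figure D2:**
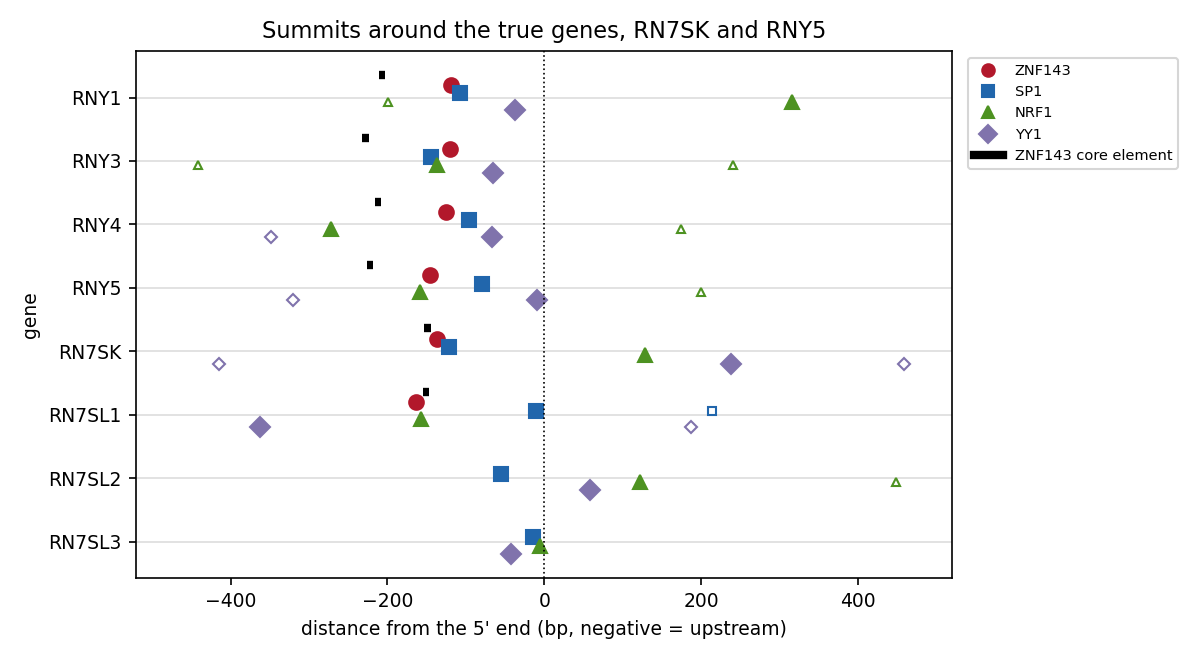
Summits within 500 bp of the 5′ end of the 6 true genes and of RN7SK and RNY5, by distance from the 5′ end in bp (x axis, upstream negative) and gene (y axis). Filled symbols are the highest-scoring summit of a list, open symbols further summits, and black bars the CCCANNATG core. The ZNF143 summits lie between 163 and 119 bp upstream, and RN7SL2 and RN7SL3 have no ZNF143 summit and no core.

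The 3 genes for 7SL RNA, on chromosome 14, differed from the Y RNA genes and among themselves. RN7SL1 (ENSG00000276168.1, 49586580 to 49586878, plus strand) had a ZNF143 summit 163 bp upstream with a score of 1758 (top 9.85%), the lowest of the 4 true genes with one. It lay 12 bp from the centre of a CCCANNATG core at -155 to -147. RN7SL1 was also the only true gene with TGACGTCA, at -51 to -44. The NRF1 summit lay 157 bp upstream of the gene start, 6 bp from the ZNF143 summit, with a score of 8221 (top 1.62%). At the other 5 true genes the strongest NRF1 summits had scores between 12.7 and 26.0. The strongest YY1 summit lay 362 bp upstream (1548, top 1.16%) and SP1 11 bp upstream (263, top 8.93%). RN7SL1 lies within the annotated span of RPS29 and starts 200 bp from the start of an RPS29 transcript on the other strand, RPS29-201 at 49586380, so its upstream region is also that of this ribosomal protein gene. Which of both starts a summit belongs to cannot be told apart.

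RN7SL2 (ENSG00000274012.1, 49862550 to 49862849, minus strand) and RN7SL3 (ENSG00000278771.1, 49853616 to 49853914, minus strand) had no ZNF143 summit and no CCCANNATG within 300 bp upstream. The nearest ZNF143 summits lay 586 bp downstream of the RN7SL2 start (score 6.21, top 72.6%) and 928 bp downstream of the RN7SL3 start (12.96, top 50.5%), so windows of 1000 bp included both. RN7SL2 lies inside a lncRNA gene, ENSG00000282885, and starts 223 bp from the 5′ end of another, ENSG00000278002. Summits at RN7SL2 cannot be assigned to either start. RN7SL3 starts 1093 bp from the 5′ end of the protein-coding gene NEMF. Summits of the other lists lay close to the gene starts. SP1 lay 55 bp upstream of RN7SL2 with a score of 492 (top 4.73%), the highest SP1 score among the true genes, and 14 bp upstream of RN7SL3 with 91.1 (top 19.0%), the lowest. YY1 lay 58 bp downstream of the RN7SL2 start (201, top 7.22%) and 43 bp upstream of RN7SL3 (177, top 8.12%). NRF1 lay 122 bp downstream of the RN7SL2 start (14.8, top 29.2%) and 6 bp upstream of RN7SL3 (24.4, top 23.5%). The YY1 and strongest NRF1 summits of RN7SL2 lie inside the gene, where 11.7% of 31-base stretches occur once in the genome. Over the whole windows that share was 73.5% at RN7SL2, 75.6% at RN7SL3, 68.1% at RN7SL1 and 83.9 to 92.8% at the Y RNA genes, and its part in the positions was not tested.

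RN7SK, the source of the 7SK copies but no member, lies on chromosome 6 at 52995621 to 52995948. Its ZNF143 summit lay 137 bp upstream with a score of 6006 (top 4.55%), 12 bp from a CCCANNATG core on the minus strand. SP1 lay 122 bp upstream (356, top 6.74%), while the strongest YY1 and NRF1 summits lay 238 bp (318, top 4.65%) and 128 bp downstream of the start (31.9, top 21.1%). RN7SK starts 317 bp from the 5′ end of the protein-coding gene GSTA4. Which of both starts a summit belongs to cannot be told apart. With RN7SK and RNY5 counted as true genes, a choice made after seeing the data, the ZNF143 difference from the copies was 74.8 points (40.7 to 92.6).

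**Figure D3:**
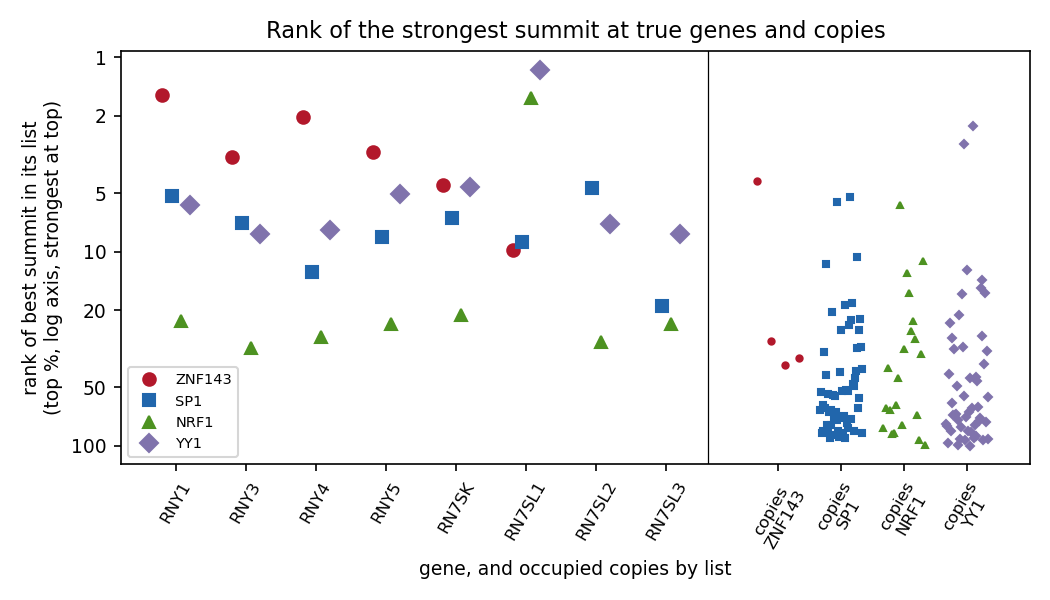
Rank of the highest-scoring summit within its list (y axis, top %, log axis, strongest at the top) at each true gene, RN7SK and RNY5, and at every copy with a summit (small symbols, 1 column per list). ZNF143 summits at the true genes lie in the top 1.57 to 9.85% and those at the copies at the top 4.35, 29.0, 35.1 and 38.2%.

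Away from protein-coding genes, ZNF143 summits at copies were nearly absent. Of the 20 copies that start within 1000 bp of the 5′ end of a protein-coding gene, 3 had a ZNF143 summit (15%), 6 an SP1 summit (30%), 9 an NRF1 summit (45%) and 5 a YY1 summit (25%). Over all annotated genes these shares were 13.8%, 28.4%, 21.5% and 27.6%, within the interval of the near copies for ZNF143, SP1 and YY1 and below it for NRF1 (25.8 to 65.8). Of the 1752 copies farther away, 1 had a ZNF143 summit (0.0571%, 0.0101 to 0.323), 52 an SP1 summit (2.97%), 12 an NRF1 summit (0.685%) and 45 a YY1 summit (2.57%). The near copies exceeded the far ones by 44.3 percentage points for NRF1 (25.1 to 65.1), 27.0 for SP1 (11.6 to 48.9), 22.4 for YY1 (8.59 to 44.3) and 14.9 for ZNF143 (5.18 to 35.98), with overlapping intervals. With windows of 250 bp no copy, near or far, had a ZNF143 summit. The share of copies with a summit of any list was 13.2% (19 of 144) at 1 to 5 kb, 5.02% (24 of 478) at 5 to 20 kb, 3.34% (24 of 718) at 20 to 100 kb and 1.21% (5 of 412) beyond. Of the 72 far copies with a summit, 2 lay within 1000 bp of the start of an alternative protein-coding transcript.

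**Figure D4:**
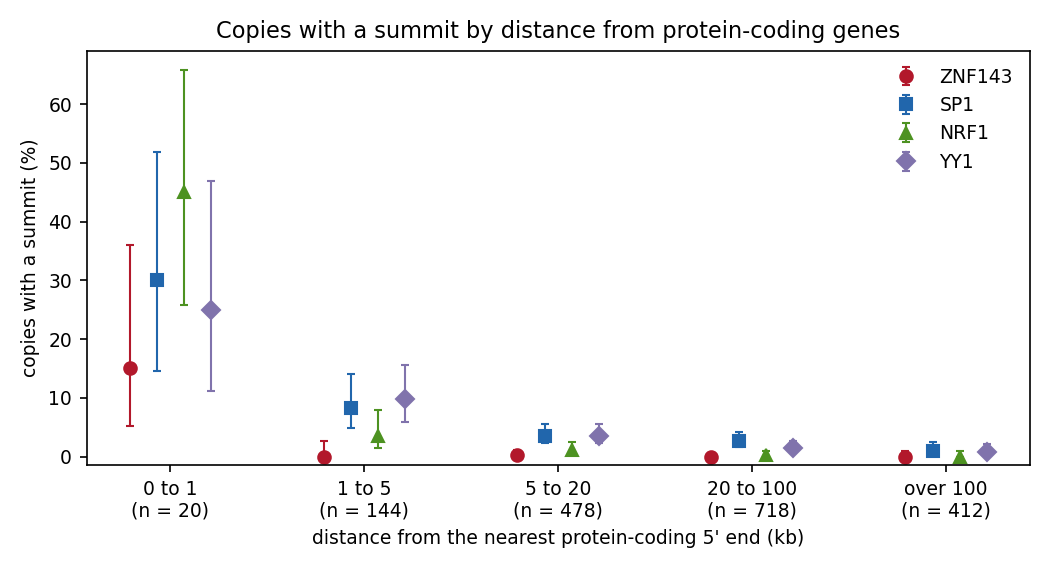
Share of copies with a summit within 500 bp (y axis, %) by distance from the nearest protein-coding 5′ end (x axis, kb), for each list, with Wilson 95% intervals. The shares are highest within 1 kb, at 15 to 45%, and at most 0.971% beyond 100 kb.

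The 4 copies with a ZNF143 summit had it far from their own start. RN7SL521P, a 7SL copy on chromosome 7 whose start lies 338 bp from that of ZNF425, a zinc finger gene, had a ZNF143 score of 6252 (top 4.35%) 358 bp upstream. Its SP1 summit lay at the same base (451, top 5.24%), its YY1 summit 326 bp upstream (724, top 2.26%) and its strongest NRF1 summit 352 bp upstream (19.6, top 25.7%). RN7SKP175, 663 bp from ZC3H3, had a ZNF143 score of 27.4 (top 35.1%) 488 bp upstream and no other summit. An unnamed Y_RNA on chromosome 12 (ENSG00000252660.1), 551 bp from PPM1H, had a ZNF143 score of 22.8 (top 38.2%) 374 bp upstream. RN7SL402P on chromosome 19, 12603 bp from the NPHS1 5′ end, was the only far copy with one, with a score of 43.6 (top 29.0%) 385 bp downstream of its start, beyond the end of the copy. So the score of RN7SL521P lay in the range of the true genes, and those of the other 3 below it.

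Among far copies the 3 highest-scoring summits of each other list lay 136 to 471 bp from the copy's start. The 3 highest SP1 scores were 427 (top 5.55%) 409 bp upstream of a Y_RNA on chromosome 2 (ENSG00000202137.1), 192 (top 11.5%) 231 bp upstream of a Y_RNA on chromosome 21 (ENSG00000199962.1) and 96.4 (top 18.3%) 136 bp upstream of RN7SL108P on chromosome 14. The 3 highest YY1 scores were 562 (top 2.79%) 280 bp downstream of the start of a Y_RNA on chromosome 1 (ENSG00000206640.1), 112 (top 12.4%) 471 bp upstream of a Y_RNA on chromosome 14 (ENSG00000212335.1) and 97.0 (top 14.02%) 333 bp downstream of the start of RN7SL4P on chromosome 3. RN7SL4P is 98.3% identical to RN7SL2 over 235 bases, and 46.0% of the 31-base stretches in its window occur once. The 3 highest NRF1 scores were 232 (top 11.2%) 470 bp downstream of the start of a Y_RNA on chromosome 17 (ENSG00000275982.1), 469 bp from the start of an ALDH3A2 transcript, 64.05 (top 16.3%) 305 bp upstream of RN7SL346P on chromosome 15, and 26.2 (top 22.8%) at RN7SL402P. Over all copies the median rank of the strongest summit was the top 56.2% for SP1, 44.5% for NRF1 and 65.2% for YY1, against 8.04%, 25.4% and 7.48% at the true genes. Over far copies alone it was the top 62.8%, 50.8% and 63.8%. Of the copies' strongest summits, 3 of 58 for SP1, 0 of 21 for NRF1 and 4 of 50 for YY1 lay inside the copy. A copy fills only part of its window, with a median length of 102 bp for Y RNA, 305 bp for 7SK and 294 bp for 7SL. The counts that evenly spread summits would give were not computed.

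Y RNA copies had an SP1 summit more often than 7SL or 7SK copies, which did not differ detectably from each other. Among far copies an SP1 summit was found at 41 of 795 Y RNA copies (5.16%), 10 of 669 copies of 7SL (1.49%) and 1 of 288 copies of 7SK (0.347%). Y RNA copies exceeded 7SL copies by 3.66 percentage points (1.85 to 5.55) and 7SK copies by 4.81 points (2.73 to 6.60). For YY1 the shares were 3.77%, 2.09% and 0.347%, and Y RNA exceeded 7SK by 3.43 points (1.48 to 5.01), while its difference from 7SL, 1.68 points, had an interval that included 0 (-0.102 to 3.46). Intervals for 7SL minus 7SK included 0 for SP1 (1.15 points, -0.585 to 2.41) and for YY1 (1.75 points, -0.0565 to 3.16). NRF1 shares were 1.13%, 0.448% and 0%, with intervals of all 3 differences that included 0. The ZNF143 differences between families also had intervals that included 0. The 7SK copies lay farther from protein-coding genes, at a median of 81602 bp against 27596 bp for Y RNA and 30867 bp for 7SL copies. Their windows held the largest share of 31-base stretches that occur once, 90.2% against 80.8% for Y RNA and 76.0% for 7SL. The part of either measure in the family differences was not tested.

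Compared with their surroundings, starts of 7SL copies and 7SK copies had fewer SP1 summits, and those of Y RNA copies did not differ detectably. The surroundings were windows of the same size 2 kb to either side. Intervals for start minus flanks treat both as independent windows and ignore that each start and its flanks belong to the same copy. Far copies lie over 1000 bp from a protein-coding 5′ end by selection, so a fair flank must meet the same condition, and 74 flanking windows that did not were left out, a choice made after seeing the data. At 7SL copies the SP1 share was then 1.49% at the start and 4.50% in the flanks, a difference of -3.00 percentage points (-4.43 to -1.42), and at 7SK copies 0.347% and 2.63% (-2.28, -3.97 to -0.387). At Y RNA copies it was 5.16% and 4.26%, with an interval that included 0 (-0.851 to 2.87). For YY1 the 7SL difference was -1.72 points (-3.17 to -0.0585), and the intervals at Y RNA and 7SK copies included 0.

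Over all far copies held to that condition, the SP1 difference was -1.11 points (-2.11 to -0.0223). Those of YY1 (-0.901, -1.83 to 0.119), NRF1 (-0.131, -0.596 to 0.436) and ZNF143 (-0.176, -0.407 to 0.113) had intervals that included 0. With all flanking windows kept, some of which lie at promoters, the differences were larger, at -2.05 for SP1 (-3.10 to -0.927), -1.88 for YY1 (-2.86 to -0.822), -1.08 for NRF1 (-1.66 to -0.446) and -0.628 for ZNF143 (-0.963 to -0.280). The share of 31-base stretches that occur once was 80.5% at the start and 80.7% on either side over all far copies, and 76.0% against 78.6 and 78.4% for 7SL copies.

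**Figure D5:**
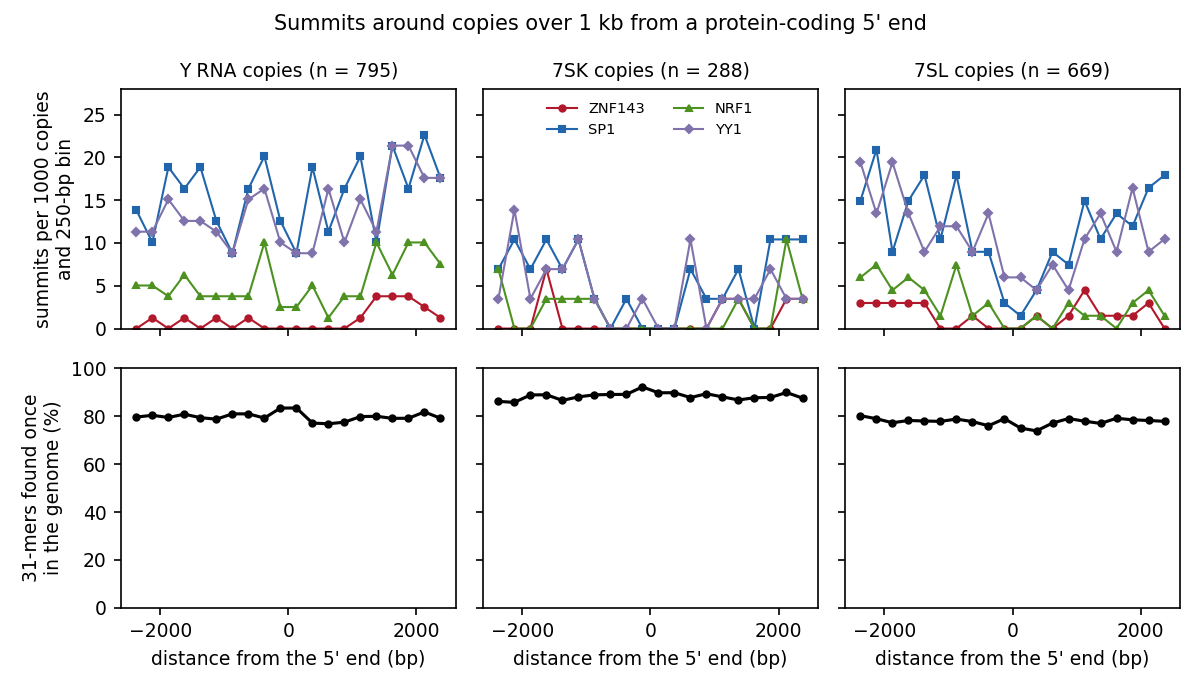
Summits per 1000 far copies in bins of 250 bp (top row) and share of 31-base stretches that occur once in the genome (bottom row, %) by distance from the 5′ end in bp, upstream negative, for copies of Y RNA, 7SK and 7SL. The bins away from the start are not held to a distance from protein-coding genes. At 7SL copies SP1 has its fewest summits, 1 among 669 copies, in the bin after the start. At 7SK copies no summit of any list lies in the 500 bp after the start, nor in the bin from -750 to -501 bp.

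A difference in ZNF143 summits between copies more and less like a true gene was not detectable at this number of regions. Of 293 copies at least 90% identical to a true gene or RN7SK over at least 90% of it, 1 had a ZNF143 summit (0.341%, 0.0603 to 1.91), against 3 of 1479 others (0.203%). SP1 summits were more frequent at the copies more like a true gene, with 16 of the 293 (5.46%, 3.39 to 8.69) against 42 of the 1479 (2.84%, 2.11 to 3.82). YY1 summits lay at 3.41% and 2.70%. Intervals for these SP1 and YY1 differences were not computed. The split was not made within families, whose median identity was 89.1% for Y RNA, 86.6% for 7SK and 83.3% for 7SL copies. Of all Y RNA copies 5.69% had an SP1 summit, and the part of family in the SP1 shares was not tested. The ZNF143 core was about as frequent upstream of copies as upstream of all genes. CCCANNATG lay within 300 bp upstream of 4 of the 6 true genes, 72 of 1772 copies (4.06%) and 4.45% of all annotated genes. None of those 72 copies had a ZNF143 summit (0 to 5.07%), against 4 of the 1700 copies without the core (0.235%, 0.0915 to 0.603). At this number of copies a difference between both groups was not detectable. ATGCAAAT lay upstream of 2.60% of copies and 2.42% of all genes, TGACGTCA upstream of 1 true gene (RN7SL1), 1 copy (0.0564%) and 1.00% of all genes, and TATA at 10.5% of copies and 6.64% of all genes.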

How the data were processed

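ChIP-seq libraries were grouped by antibody and treatment from their titles. Per the submitters' processing notes the tools were cutadapt, Bowtie2, SAMtools 1.16.1, MACS3 and bedtools with hg38, and their settings are not given in the sources used here. Each deposited list holds summit positions and, from the values and layout, the −log10 of a p or q value, and which of both is not stated. The authors' labels tie the ZNF143 and SP1 lists to treated and untreated samples alike. The NRF1 and YY1 lists were assigned from the antibody in their names. Mock samples were not analysed here, and some sequences are not reported here.

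Summits within 500 bp of GENCODE 44 gene 5′ ends were counted in Python 3.11.15 (pandas 2.3.3, numpy 2.4.6), with code tested on simulated data. Sequences came from hg38 through pysam 0.24.0. Copies were compared with RNY1, RNY3, RNY4, RNY5, RN7SK and RN7SL1 to RN7SL3 by blastn 2.17.0 (E value 1e-5). Uniqueness is the share of 31-base stretches occurring once on either strand of chromosomes 1 to 22, X and Y. Near copies have a 5′ end within 1000 bp of that of a protein-coding gene. Named were the true genes, RN7SK and RNY5, far copies with the 5 highest ZNF143 and the 3 highest SP1, NRF1 and YY1 scores, near copies with the 5 highest ZNF143 scores, and the copies closest in sequence to RNY1, RNY3, RNY4 and RN7SL1. Only 1 far and 3 near copies had a ZNF143 score. The members and lists were chosen with earlier results of these data known. No p-values were computed, since regions are not replicates.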

Additional observations from a re-analysis of the deposited data

How the results depend on the processing

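No paired analysis was possible because the lists carry no value per sample. Of 112 values recomputed under alternatives none changed direction, 83 stayed within the interval of the reported difference and 29 moved out of it. The lists give no depth, so an absent summit does not show absent binding. The NRF1 and YY1 lists skip 10 or more consecutive peak numbers in 61 stretches, which hold 24 copies and no true gene. The cause of the changes below was not tested, beyond fewer summits in shortened lists, flanks at promoters and more sequence in wider windows. Values are differences of shares in percentage points.

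With windows of 1000 bp, true genes minus copies was 99.2 for ZNF143, and near minus far copies was 49.8 for ZNF143, 69.6 for SP1, 59.9 for YY1 and 58.6 for NRF1, so that NRF1 no longer had the largest. With windows of 250 bp, true genes minus copies was 98.7 for SP1, 99.7 for NRF1 and 98.6 for YY1, and near minus far copies was 0 for ZNF143 and 14.9 for NRF1. With the top 50% of each list, true genes minus copies was 98.8 for SP1, 99.4 for NRF1 and 98.9 for YY1, and near minus far was 24.7 for NRF1. With lists cut to 16165 summits, true genes minus copies was 99.4 for NRF1 and 99.8 for YY1. For SP1 it was 83.1, with a summit at 5 of 6 true genes, and stayed within the interval of the reported difference. Near minus far was then 9.89 for SP1, 19.7 for NRF1 and 4.83 for YY1, and start minus flanks was -0.742 for SP1 and -0.457 for YY1. With flanks 2 kb away held over 1000 bp from protein-coding 5′ ends, start minus flanks was -0.176 for ZNF143 and -0.131 for NRF1. With flanks 5 kb away, not held to that distance, start minus flanks was -3.94 for SP1, -3.40 for YY1, -2.03 for NRF1 and -1.43 for ZNF143. For NRF1, true genes minus copies was 99.3 without near copies and 99.4 without copies near a protein-coding transcript start, an alternative added after seeing the data, and near minus far was 21.3 with near set at 2000 bp.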

Other observations

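Of the 1772 copies, 920 (51.9%) started inside a protein-coding gene, 546 on the same strand as a host gene and 374 only on the opposite one. A summit of any list lay at 48 of these 920 copies (5.22%) and at 4.23% of the copies outside protein-coding genes. By family the shares inside and outside protein-coding genes were 8.11% and 7.39% for Y RNA, 3.24% and 1.80% for 7SL, and 0% and 2.40% for 7SK copies. These differences were not tested, and the share of all annotated genes with a summit of any list was not computed.

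Copies closest in sequence to RNY4 had the highest share with an SP1 summit of the 3 Y RNA groups, at 11 of 83 (13.3%, 7.56 to 22.2), against 22 of 390 for RNY3 (5.64%, 3.75 to 8.39) and 13 of 333 for RNY1 (3.90%, 2.30 to 6.56). For YY1 the shares were 9.64%, 3.85% and 3.30%. This split was chosen after its values were seen and was not tested.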
